A study of Rattus norvegicus with 17 samples.

Results

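The genes described here are 8 members of the pathway through which leukaemia inhibitory factor signals, namely the cytokine gene Lif, the receptor genes Lifr, Il6st and Osmr, the kinase genes Jak1 and Jak2, the transcription factor gene Stat3 and the feedback inhibitor gene Socs3. They were taken by name from the deposited gene table, which held all 8 among its 11247 gene labels, and the rule that picked them used names alone, although earlier results of these data were known. Cytokines of this family bind receptor pairs that share the chain gp130, the product of Il6st. Binding activates the Janus kinases Jak1 and Jak2, which phosphorylate Stat3, and phosphorylated Stat3 enters the nucleus and raises the transcription of its targets, among them Socs3, whose product then blocks the kinases. In the brain the pathway is known for driving astrocyte differentiation and the reactive state of astrocytes, and for trophic effects on neurons.

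Messenger RNA was measured in primary cultures of rat cerebral cortex, labelled as glutamatergic neurons with astrocytes. The cultures carried α-synuclein A53T, a variant of a presynaptic protein that causes familial Parkinson's disease, or an empty vector, and the labels name neither the promoter nor the cells that expressed it. The cultures received FK506 at 0.2 µM, a dose labelled as sub-saturating, or at 2.0 µM, labelled as saturating, or DMSO as vehicle. FK506 binds the immunophilin FKBP12, and the complex inhibits the phosphatase calcineurin. The 6 groups were A53T in DMSO, with 2 libraries numbered 1 and 3 in the table, A53T at 0.2 µM and at 2.0 µM FK506, and vector in DMSO, at 0.2 µM and at 2.0 µM FK506, with 3 libraries each. The deposited values are HTSeq gene counts after the authors' normalization, called normalized counts below. They are not per length, so levels of different genes are not compared.

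The 17 libraries had normalized totals of 15091428 to 18335540, and their depth in reads is unknown. The 3 libraries of A53T at 0.2 µM differed from each other by only 0.995 to 1.05 times Poisson sampling noise, against 1.48 to 14.5 times for pairs in the other groups, and they were counted as 1 sample. In 3 groups 1 library stood apart from its fellows, namely replicate 1 in A53T at 2.0 µM, replicate 1 in vector at 0.2 µM and replicate 2 in vector at 2.0 µM. For values of 10 to 3000 their ratios were 5.65 to 14.5, where the remaining pairs of those groups had 1.48 to 3.2. Of the markers listed for each cell type the table held 14 of 15 for astrocytes, 13 of 13 for neurons and 2 of 14 for microglia. It held 8 of 12 for fibroblasts and meninges, 1 of 10 for endothelium and 7 of 10 for the oligodendrocyte lineage. No measured marker was at 0 in every library of a group. Astrocyte markers summed to 53646 to 117330 normalized counts per library and neuronal markers to 53510 to 78916, so both labelled cell types were present. The values do not separate fewer cells of a type from less RNA per cell.

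Promoters are shown for 3 members that were lower in A53T cultures at 2.0 µM FK506 than in DMSO, namely Osmr, Socs3 and Stat3. Each is the stretch of 250 bases before the annotated start in the RefSeq table of build GRCr8, printed 5′ to 3′ on the strand of the gene. The Osmr stretch lies at chr2:57688562-57688811 on the minus strand, the Socs3 stretch at chr10:103694769-103695018 on the minus strand and the Stat3 stretch at chr10:86363360-86363609 on the minus strand. Capitals mark the only match found to any of the 4 motifs searched.
Osmr: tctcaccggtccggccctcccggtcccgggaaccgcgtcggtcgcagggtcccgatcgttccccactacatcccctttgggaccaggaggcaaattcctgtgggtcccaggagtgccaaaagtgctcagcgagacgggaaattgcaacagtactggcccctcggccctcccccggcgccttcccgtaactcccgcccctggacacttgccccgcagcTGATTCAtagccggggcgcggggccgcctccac
Socs3: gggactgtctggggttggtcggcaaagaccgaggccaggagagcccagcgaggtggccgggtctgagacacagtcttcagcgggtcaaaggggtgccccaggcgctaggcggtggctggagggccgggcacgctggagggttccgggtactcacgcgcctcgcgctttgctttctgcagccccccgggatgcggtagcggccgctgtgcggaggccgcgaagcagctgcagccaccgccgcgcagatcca
Stat3: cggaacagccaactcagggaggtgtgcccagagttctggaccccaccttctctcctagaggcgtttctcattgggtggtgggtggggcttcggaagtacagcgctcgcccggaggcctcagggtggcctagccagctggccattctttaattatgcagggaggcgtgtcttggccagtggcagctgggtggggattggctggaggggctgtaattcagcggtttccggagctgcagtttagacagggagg
The table held promoters of 6 of the 8 members, and Lif and Jak1 are named only. The motifs were TTCNNNGAA and the same outer letters with 4 bases between them, the forms that Stat proteins bind, TGANTCA, the form that Fos and Jun proteins bind, and TGACGTCA, the full cAMP response element. All 4 read the same on both strands and were searched without mismatches. The Osmr promoter held 1 match to TGANTCA, 33 bases before the start, and the other 5 promoters held no match to any of the 4. Of all 33469 promoters in the table, 6.34% held TGANTCA in the same window, 7.67% held TTCNNNGAA, 6.25% held its form with 4 inner bases and 1.59% held TGACGTCA. A match is a run of letters and not a measured site, and letters outside this window were not searched.

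Fold changes and errors come from limma on log2(value + 1), fitted over all genes and all 6 groups, and each is given as log2 fold change ± standard error with its Benjamini-Hochberg adjusted p over all 11247 genes. The words rose and fell are used only for an adjusted p under 0.05. In DMSO, 3 of the 8 genes were higher and 0 lower in A53T cultures than in vector cultures, where 14% of all genes passed the test (5.85% higher and 8.19% lower). In A53T cultures 5 were higher and 0 lower at 0.2 µM than in DMSO, where 68% of all genes passed (33.5% higher and 34.4% lower), and 0 were higher and 4 lower at 2.0 µM, where 37.6% passed (19.7% higher and 17.9% lower). In vector cultures 0 were higher and 1 lower at 0.2 µM than in DMSO, where 18.3% of all genes passed (7.7% higher and 10.6% lower), and 1 was higher and 0 lower at 2.0 µM, where 47.2% passed (23.4% higher and 23.8% lower). The median log2 fold change of the 8 genes was 0.36 for A53T against vector in DMSO, 0.94 and -0.37 for A53T at 0.2 and 2.0 µM against DMSO, and 0.07 and 0.08 for vector at the same doses. Over all genes the medians of these 5 comparisons lay between -0.0058 and 0.0122. When the 3 libraries that stood apart were dropped, 3 members were higher for A53T against vector in DMSO, 7 higher and 4 lower for A53T at 0.2 and 2.0 µM, 2 higher and 2 lower for vector at 0.2 µM and 2 higher for vector at 2.0 µM. Under this setting the share of all genes that passed was also larger, at 39% for A53T against vector in DMSO, 75.1% and 48.3% for A53T at 0.2 and 2.0 µM and 52.4% and 61.2% for vector at the same doses. Since it was deviation that singled these libraries out, dropping them also narrows the spread. Within each culture type both doses were set against the same DMSO libraries, so those comparisons are not independent of each other.

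**Figure D1:**
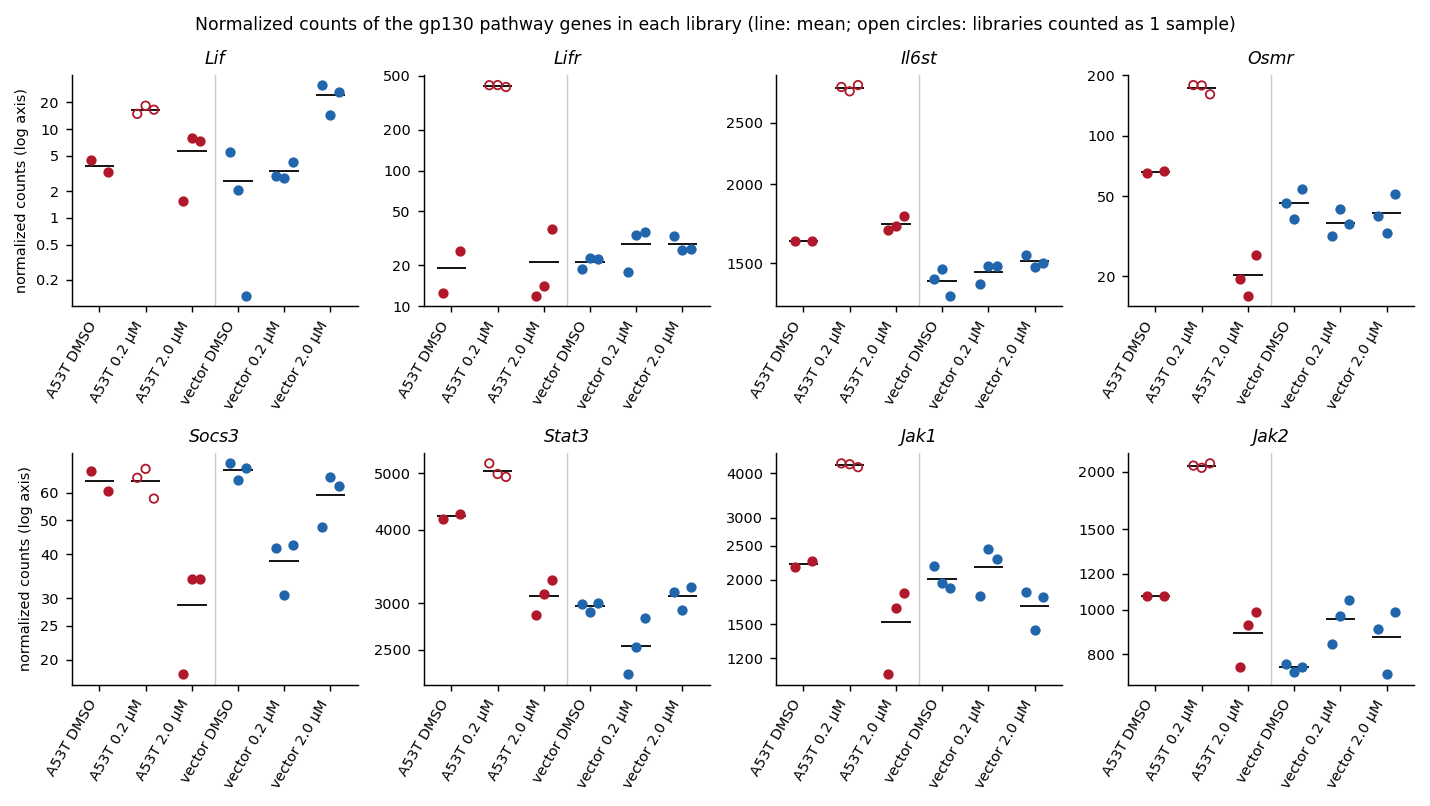
Normalized counts (log axes, each panel with its own range) of the 8 genes in every library, grouped by culture and FK506 dose. Points are libraries, lines are group means and open circles mark the A53T libraries at 0.2 µM, which count as 1 sample; Lif was highest in vector at 2.0 µM, while Lifr, Il6st, Osmr, Stat3, Jak1 and Jak2 were highest in A53T at 0.2 µM.

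Lif encodes the secreted cytokine. The A53T libraries had 4.47 and 3.25 normalized counts in DMSO, 14.8, 18.3 and 16.5 at 0.2 µM FK506 and 1.56, 8.004 and 7.44 at 2.0 µM. The vector libraries had 5.59, 2.06 and 0.132 in DMSO, 2.97, 2.84 and 4.22 at 0.2 µM and 31.3, 14.6 and 26.3 at 2.0 µM. All 3 vector libraries at 2.0 µM therefore lay above every library of both other vector groups. Lif rose in vector at 2.0 µM against DMSO (3.08 ± 0.62, adjusted p = 0.00129 by limma) and against 0.2 µM (2.48 ± 0.62, adjusted p = 0.00853), and in vector at 0.2 µM against DMSO the difference was 0.60 ± 0.62 (adjusted p = 0.512). The lowest of the DMSO values, 0.132 in replicate 3, set part of the first fold change, which was 2.41 (adjusted p = 0.00543) without that library. Over all alternatives run, the first fold change ranged from 2.12 to 3.74 and its call was kept.

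In A53T cultures Lif did not pass against DMSO at 0.2 µM (1.86 ± 0.93, adjusted p = 0.0919) or at 2.0 µM (0.26 ± 0.69, adjusted p = 0.78). The difference at 0.2 µM passed under 6 of 28 alternatives. The 3 A53T libraries at 0.2 µM were all above both DMSO libraries, while those at 2.0 µM overlapped them. At 2.0 µM Lif was lower in A53T than in vector cultures (-2.05 ± 0.62, adjusted p = 0.0364), with no overlap between 1.56 to 8.004 in A53T and 14.6 to 31.3 in vector. That call was lost in a fit to the compared groups alone (adjusted p = 0.077) and with 0.25 in place of 1 added to each value (adjusted p = 0.0804). A block for the replicate number of the column also ended it (adjusted p = 0.0593). So did leaving out any 1 of 6 libraries, among them replicate 1 of A53T at 2.0 µM (-1.46, adjusted p = 0.12). The test of whether the 2.0 µM change differed between A53T and vector cultures gave -2.81 ± 0.93 (adjusted p = 0.0607), and it passed under 6 of 28 alternatives. By group mean the order of Lif was vector at 2.0 µM, A53T at 0.2 µM, A53T at 2.0 µM, A53T in DMSO, vector at 0.2 µM and vector in DMSO. The first pair overlapped each other and not the other 4, whose libraries overlapped throughout.

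Of 10 other cytokine genes of the family the table held 6, and none of those 6 passed for A53T against vector in DMSO. Clcf1, which encodes a ligand of the ciliary neurotrophic factor receptor, went opposite ways at 2.0 µM in the 2 kinds of culture. It had 26.5 to 43.4 normalized counts in A53T at 2.0 µM, against 61.6 and 70.2 in A53T in DMSO, and it fell (-0.98 ± 0.21, adjusted p = 0.00433). It had 69.8 to 76.5 in vector at 2.0 µM, against 42.0 to 59.0 in vector in DMSO, and it rose (0.52 ± 0.19, adjusted p = 0.0391). The difference between these changes passed the test (-1.50 ± 0.29, adjusted p = 0.00548). At 2.0 µM, 0 cytokine genes of the 6 were higher and 1 lower than in DMSO in A53T, and 1 was higher and 1 lower in vector. At 0.2 µM, 3 fell and 0 rose in A53T, and 0 of 6 passed in vector. The medians of the list ran from -0.64 for A53T at 0.2 µM to -0.10 for vector at 2.0 µM over the 5 comparisons. Of all genes 14% passed for A53T against vector in DMSO and 68% and 37.6% for A53T at 0.2 and 2.0 µM. In vector at the same doses 18.3% and 47.2% passed. Without the 3 libraries that stood apart, or after quantile normalization, 0 of the 6 were higher in vector at 2.0 µM, so the rise of Clcf1 there did not hold.

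Among the receptors, Lifr encodes the chain that pairs with gp130 to bind the cytokine. A53T cultures had 12.6 and 25.6 normalized counts in DMSO, 427, 428 and 414 at 0.2 µM FK506 and 11.9, 14.0 and 37.1 at 2.0 µM. Vector cultures had 18.9, 22.5 and 22.3 in DMSO, 17.8, 33.6 and 35.4 at 0.2 µM and 33.1, 26.1 and 26.3 at 2.0 µM. The A53T libraries at 0.2 µM lay more than 10 times above every other library, and the other 5 groups together spanned 11.9 to 37.1. Among those 5, the vector libraries at 2.0 µM lay above those of vector in DMSO and of A53T in DMSO, and the remaining pairs of groups overlapped. Lifr rose in A53T at 0.2 µM against DMSO (4.48 ± 0.60, adjusted p = 7.47e-05), a change that differed from that in vector (4.10 ± 0.72, adjusted p = 0.00163). It did not pass in A53T at 2.0 µM (0.03 ± 0.44, adjusted p = 0.959) or in vector at 0.2 µM (0.37 ± 0.40, adjusted p = 0.524) or 2.0 µM (0.41 ± 0.40, adjusted p = 0.431).

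Il6st encodes gp130 itself. Its values in A53T cultures were 1626 and 1628 normalized counts in DMSO, 2848, 2803 and 2868 at 0.2 µM FK506 and 1692, 1720 and 1778 at 2.0 µM. In the vector groups the values were 1418, 1470 and 1332 in DMSO, 1390, 1483 and 1483 at 0.2 µM and 1546, 1480 and 1503 at 2.0 µM. Every A53T library lay above every vector library. Il6st was higher in A53T than in vector cultures at each dose, by 0.21 ± 0.06 in DMSO (adjusted p = 0.0293), 0.97 ± 0.07 at 0.2 µM (adjusted p = 1.38e-06) and 0.20 ± 0.05 at 2.0 µM (adjusted p = 0.02). The call in DMSO was lost without any 1 of 4 libraries of those groups (highest adjusted p = 0.165) and the call at 2.0 µM without replicate 2 or 3 of vector at 2.0 µM (adjusted p = 0.0513 and 0.0614) and with only the groups compared (adjusted p = 0.1). A correction for gene length also ended the DMSO call (0.15, adjusted p = 0.0593). Quantile normalization ended the call at 2.0 µM (0.17, adjusted p = 0.0631). Against DMSO Il6st rose in A53T at 0.2 µM (0.80 ± 0.08, adjusted p = 8.89e-06), while the differences in A53T at 2.0 µM (0.09 ± 0.06, adjusted p = 0.236) and in vector at 0.2 µM (0.05 ± 0.05, adjusted p = 0.545) and 2.0 µM (0.10 ± 0.05, adjusted p = 0.123) did not pass.

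Osmr encodes the receptor chain for oncostatin M, which also pairs with gp130. In A53T cultures it had 65.5 and 67.0 normalized counts in DMSO, 179, 178 and 161 at 0.2 µM FK506 and 19.5, 16.0 and 25.5 at 2.0 µM. Its values in vector cultures were 46.4, 38.8 and 54.5 in DMSO, 31.7, 43.2 and 36.3 at 0.2 µM and 40.0, 32.8 and 51.6 at 2.0 µM. The 3 A53T groups did not overlap, whereas the 3 vector groups did. In A53T cultures Osmr rose at 0.2 µM (1.37 ± 0.33, adjusted p = 0.00309) and fell at 2.0 µM (-1.68 ± 0.25, adjusted p = 0.000373), both against DMSO. The fall at 2.0 µM passed under every alternative setting run, with fold changes of -1.85 to -1.41. In vector cultures the differences were -0.32 ± 0.22 at 0.2 µM (adjusted p = 0.325) and -0.17 ± 0.22 at 2.0 µM (adjusted p = 0.549). The 2.0 µM change differed between the cultures (-1.51 ± 0.33, adjusted p = 0.0116), a call lost without replicate 1 or 3 of A53T in DMSO (adjusted p = 0.0501 and 0.056). In DMSO alone Osmr was 0.51 ± 0.25 in A53T against vector (adjusted p = 0.192), although the libraries did not overlap.

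Of 4 other receptor genes of the family the table held 3, and 0 of them passed for A53T against vector in DMSO. Cntfr, which encodes the binding chain for ciliary neurotrophic factor, rose in vector at 0.2 µM (0.44 ± 0.10, adjusted p = 0.0119) and 2.0 µM (0.54 ± 0.10, adjusted p = 0.000716). Il11ra1, the interleukin 11 receptor gene, fell in A53T at 0.2 µM (-0.77 ± 0.19, adjusted p = 0.00331) and rose at 2.0 µM in A53T (0.78 ± 0.14, adjusted p = 0.00148) and in vector (0.52 ± 0.13, adjusted p = 0.00423). Il6r, the interleukin 6 receptor gene, fell in A53T at 2.0 µM (-0.28 ± 0.10, adjusted p = 0.0463). In all, 0 rose and 1 fell in A53T at 0.2 µM, 1 rose and 1 fell in A53T at 2.0 µM, 1 rose and 0 fell in vector at 0.2 µM and 2 rose and 0 fell in vector at 2.0 µM. The medians of the list were -0.24, 0.19, 0.21 and 0.52 in that order, where 68%, 37.6%, 18.3% and 47.2% of all genes passed.

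Jak1 and Jak2 encode the receptor-bound kinases. Jak1 had 2181 and 2262 normalized counts in A53T in DMSO, 4270, 4246 and 4165 in A53T at 0.2 µM and 1082, 1660 and 1831 in A53T at 2.0 µM. The vector libraries had 2195, 1957 and 1894 in DMSO, 1800, 2443 and 2292 at 0.2 µM and 1842, 1438 and 1793 at 2.0 µM. The A53T groups did not overlap, with the values at 0.2 µM above and those at 2.0 µM below the DMSO libraries, and in vector cultures the libraries at 2.0 µM lay below those in DMSO while those at 0.2 µM overlapped both. Jak1 rose in A53T at 0.2 µM (0.93 ± 0.26, adjusted p = 0.00716) and fell at 2.0 µM (-0.58 ± 0.19, adjusted p = 0.034) against DMSO. The fall was lost without replicate 1 of A53T at 2.0 µM (-0.35, adjusted p = 0.0804), without either DMSO library of A53T (adjusted p = 0.114 and 0.154) and with only the groups compared (adjusted p = 0.108). In vector cultures Jak1 did not pass at 0.2 µM (0.10 ± 0.17, adjusted p = 0.698) or 2.0 µM (-0.26 ± 0.17, adjusted p = 0.242).

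Jak2 had 1074 and 1072 normalized counts in A53T in DMSO, 2064, 2042 and 2088 in A53T at 0.2 µM and 751, 928 and 991 in A53T at 2.0 µM. Vector cultures had 761, 733 and 751 in DMSO, 840, 971 and 1049 at 0.2 µM and 908, 724 and 990 at 2.0 µM. Both A53T libraries in DMSO lay above all 9 vector libraries. Jak2 was higher in A53T than in vector cultures in DMSO (0.52 ± 0.14, adjusted p = 0.0257), a call lost without any 1 of the 5 libraries of those groups (lowest adjusted p = 0.0575, highest 0.152). It rose in A53T at 0.2 µM against DMSO (0.94 ± 0.19, adjusted p = 0.000795), while the difference in A53T at 2.0 µM was -0.28 ± 0.14 (adjusted p = 0.123). In vector cultures it was 0.34 ± 0.12 at 0.2 µM (adjusted p = 0.0722) and 0.21 ± 0.12 at 2.0 µM (adjusted p = 0.182).

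Stat3 encodes the transcription factor on which the kinases act. The A53T libraries had 4176 and 4260 normalized counts in DMSO, 5197, 4985 and 4928 at 0.2 µM FK506 and 2867, 3115 and 3281 at 2.0 µM. In the vector groups the values were 2986, 2896 and 3004 in DMSO, 2269, 2522 and 2825 at 0.2 µM and 3134, 2923 and 3193 at 2.0 µM. The A53T libraries in DMSO lay above every vector library, and those at 2.0 µM overlapped the vector libraries in DMSO and at 2.0 µM. Stat3 was higher in A53T than in vector cultures in DMSO (0.51 ± 0.08, adjusted p = 0.00201), and at 2.0 µM it was 0.00 ± 0.08 (adjusted p = 0.993). In A53T cultures it fell at 2.0 µM against DMSO (-0.45 ± 0.08, adjusted p = 0.0017), and in vector cultures it was 0.06 ± 0.08 (adjusted p = 0.566). These changes differed (-0.51 ± 0.11, adjusted p = 0.0119), a call lost without replicate 3 of A53T in DMSO (-0.49, adjusted p = 0.0613). The rise of A53T over vector in DMSO and the fall at 2.0 µM in A53T each passed under every alternative run, with fold changes of 0.44 to 0.55 and of -0.50 to -0.38. At 0.2 µM against DMSO, Stat3 did not pass in A53T (0.26 ± 0.11, adjusted p = 0.0605) or in vector (-0.23 ± 0.08, adjusted p = 0.0529). The A53T difference passed under 10 of 29 alternatives, and with a correction for gene length it had the opposite sign (-0.18, adjusted p = 0.0719). Within vector cultures Stat3 was higher at 2.0 than at 0.2 µM (0.29 ± 0.08, adjusted p = 0.0115), a call lost after quantile normalization (0.22, adjusted p = 0.0927).

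**Figure D2:**
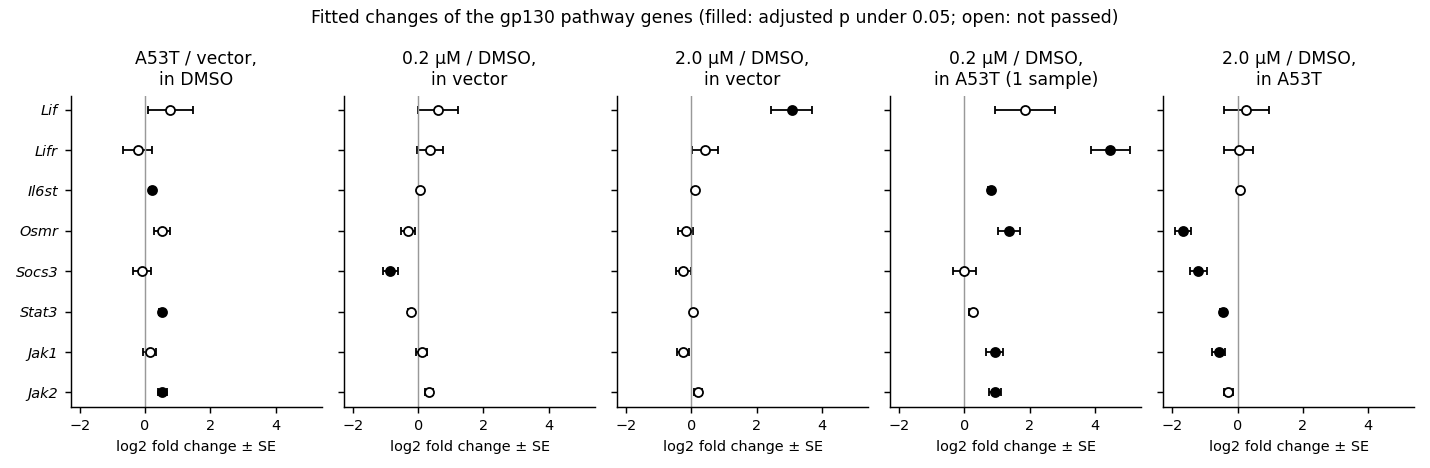
Log2 fold changes of the 8 genes with standard errors, in 5 comparisons from 1 limma fit, filled where the adjusted p was under 0.05. In A53T at 0.2 µM the 5 filled points are to the right of 0 and in A53T at 2.0 µM the 4 filled points are to the left, whereas in vector only Socs3 at 0.2 µM and Lif at 2.0 µM are filled.

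Set directly against vector cultures at 0.2 µM, A53T cultures were higher for 6 of the 8 genes and lower for 0, where 69.1% of all genes passed (33.8% higher and 35.3% lower). Besides Il6st these were Lifr (3.88 ± 0.56, adjusted p = 0.000111), Osmr (2.20 ± 0.31, adjusted p = 9.96e-05), Stat3 (0.99 ± 0.11, adjusted p = 1.53e-05), Jak1 (0.97 ± 0.25, adjusted p = 0.00387) and Jak2 (1.12 ± 0.17, adjusted p = 0.000184). Lif was 2.03 ± 0.88 (adjusted p = 0.055) and Socs3 0.75 ± 0.33 (adjusted p = 0.0614). With a correction for gene length Jak1 no longer passed here (0.28, adjusted p = 0.127), whereas Lif (2.43, adjusted p = 0.0329) and Socs3 (1.40, adjusted p = 0.00566) did. At 2.0 µM against 0.2 µM within A53T cultures 0 of the 8 were higher and 7 lower, where 77.4% of all genes passed (38.9% higher and 38.5% lower), with Osmr at -3.05 ± 0.31 (adjusted p = 7.36e-06) and Lif, at -1.60 ± 0.88 (adjusted p = 0.112), the one that did not pass. The Socs3 difference, -1.19 ± 0.33 (adjusted p = 0.00564), no longer passed after quantile normalization (-0.37, adjusted p = 0.314) or with only the groups compared (adjusted p = 0.0836). In vector cultures the same step gave 2 higher and 0 lower, Lif and Stat3, where 33.7% of all genes passed (18% higher and 15.7% lower). The changes between DMSO and 0.2 µM differed between the cultures for 6 of the 8 genes, all 6 in the higher direction, where 47.3% of all genes passed that test (22% higher and 25.3% lower). At 2.0 µM 2 differed, both in the lower direction, where 14.6% did (8.14% higher and 6.45% lower). At 2.0 µM against vector cultures, 1 of the 8 was higher in A53T (Il6st) and 3 were lower (Lif, Socs3 and, at -0.99 ± 0.22 with an adjusted p of 0.00891, Osmr), where 19.6% of all genes passed (9.88% higher and 9.7% lower). The Osmr call had an adjusted p of 0.0769 with only the groups compared. In DMSO the 4 members not yet given for A53T against vector did not pass, with 0.77 ± 0.69 for Lif (adjusted p = 0.495), -0.22 ± 0.44 for Lifr (adjusted p = 0.774), -0.10 ± 0.26 for Socs3 (adjusted p = 0.832) and 0.14 ± 0.19 for Jak1 (adjusted p = 0.661).

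Of 8 other Janus kinase and Stat genes the table held 6, and none passed for A53T against vector in DMSO. Jak3, the kinase of the common gamma chain receptors, fell in A53T at 2.0 µM (-0.90 ± 0.15, adjusted p = 0.000741), in vector at 0.2 µM (-0.55 ± 0.13, adjusted p = 0.0147) and in vector at 2.0 µM (-0.52 ± 0.13, adjusted p = 0.00612). Stat2, a mediator of interferon responses, rose in A53T at 0.2 µM (0.59 ± 0.13, adjusted p = 0.00135) and in vector at both doses (0.32 ± 0.08, adjusted p = 0.0227, and 0.42 ± 0.08, adjusted p = 0.00124). Of the 6, 3 rose and 1 fell in A53T at 0.2 µM, 0 rose and 3 fell in A53T at 2.0 µM, 1 rose and 1 fell in vector at 0.2 µM and 1 rose and 3 fell in vector at 2.0 µM. The list medians were 0.43, -0.08, 0.10 and -0.38 in that order, where 68%, 37.6%, 18.3% and 47.2% of all genes passed.

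Socs3 encodes the inhibitor that Stat3 induces and that binds gp130 and the kinases. A53T cultures had 69.2 and 60.6 normalized counts in DMSO, 66.1, 70.1 and 57.7 at 0.2 µM FK506 and 18.2, 34.02 and 33.9 at 2.0 µM. Its values in vector cultures were 72.7, 65.2 and 70.6 in DMSO, 41.7, 30.7 and 42.4 at 0.2 µM and 47.8, 66.4 and 62.7 at 2.0 µM. The dose at which Socs3 was lowest thus differed, with all A53T libraries at 2.0 µM below those in DMSO and all vector libraries at 0.2 µM below those in DMSO. In A53T cultures Socs3 fell at 2.0 µM (-1.20 ± 0.26, adjusted p = 0.00455, and 0.0563 with only the groups compared), and at 0.2 µM it was -0.01 ± 0.36 (adjusted p = 0.987). In vector cultures it fell at 0.2 µM (-0.86 ± 0.24, adjusted p = 0.0264), and at 2.0 µM it was -0.25 ± 0.24 (adjusted p = 0.423). The vector call was lost without any 1 of 5 libraries of the 2 groups (highest adjusted p = 0.109), all but replicate 1 at 0.2 µM. It was also lost with a correction for gene length (-0.71, adjusted p = 0.0703). Neither dose's change was shown to differ between the cultures, with 0.85 ± 0.43 at 0.2 µM (adjusted p = 0.114) and -0.95 ± 0.36 at 2.0 µM (adjusted p = 0.0877). At 2.0 µM the level was lower in A53T than in vector (-1.05 ± 0.24, adjusted p = 0.00941, and 0.0806 with only the groups compared).

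Of 16 other inhibitors and phosphatases that act on the kinases, the receptors or Stat proteins, the table held 14. Pias1, a SUMO ligase that inhibits Stat proteins, was higher in all 5 comparisons. It was higher by 0.47 ± 0.12 in A53T against vector in DMSO (adjusted p = 0.0239), by 1.84 ± 0.17 in A53T at 0.2 µM (adjusted p = 5.67e-06), by 0.61 ± 0.11 in vector at 0.2 µM (adjusted p = 0.00359) and by 1.34 ± 0.11 in vector at 2.0 µM (adjusted p = 1.12e-06), and by 0.44 ± 0.12 in A53T at 2.0 µM (adjusted p = 0.016). Socs4, another member of the Socs3 family, had 184 to 195 normalized counts in A53T at 0.2 µM, against 19.9 and 27.7 in A53T in DMSO (2.94 ± 0.31, adjusted p = 1.67e-05). Ptprt, a phosphatase of Stat3, had 994 to 1036 in A53T at 0.2 µM, against 85.4 and 88.4 in A53T in DMSO (3.53 ± 0.27, adjusted p = 2.22e-06). Socs2, the growth hormone feedback inhibitor, fell in A53T at 2.0 µM (-1.48 ± 0.25, adjusted p = 0.000805). Counted together, 1 rose and 0 fell in A53T against vector in DMSO, 7 rose and 2 fell in A53T at 0.2 µM, 2 rose and 2 fell in A53T at 2.0 µM, 2 rose and 0 fell in vector at 0.2 µM and 7 rose and 2 fell in vector at 2.0 µM. The list medians were 0.13, 0.27, -0.08, 0.11 and 0.25 in that order, where 14%, 68%, 37.6%, 18.3% and 47.2% of all genes passed.

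The same receptors also feed the Ras and mitogen-activated protein kinase route through adaptors, and the table held all 12 genes listed for it. The exchange factor gene Sos1 (1.27 ± 0.14, adjusted p = 1.93e-05) and the small GTPase gene Nras (1.92 ± 0.22, adjusted p = 3.01e-05) rose in A53T at 0.2 µM. Sos1 fell in A53T at 2.0 µM (-0.49 ± 0.10, adjusted p = 0.00308). In vector at 2.0 µM the adaptor gene Shc1 rose (0.81 ± 0.14, adjusted p = 0.000395) and the kinase gene Map2k2 fell (-0.75 ± 0.15, adjusted p = 0.00108). Of the 12, 0 rose and 1 fell in A53T against vector in DMSO, 6 rose and 5 fell in A53T at 0.2 µM, 1 rose and 4 fell in A53T at 2.0 µM, 0 rose and 2 fell in vector at 0.2 µM and 2 rose and 4 fell in vector at 2.0 µM. The list medians were 0.07, 0.30, -0.15, -0.02 and -0.08 in that order, where 14%, 68%, 37.6%, 18.3% and 47.2% of all genes passed.

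**Figure D3:**
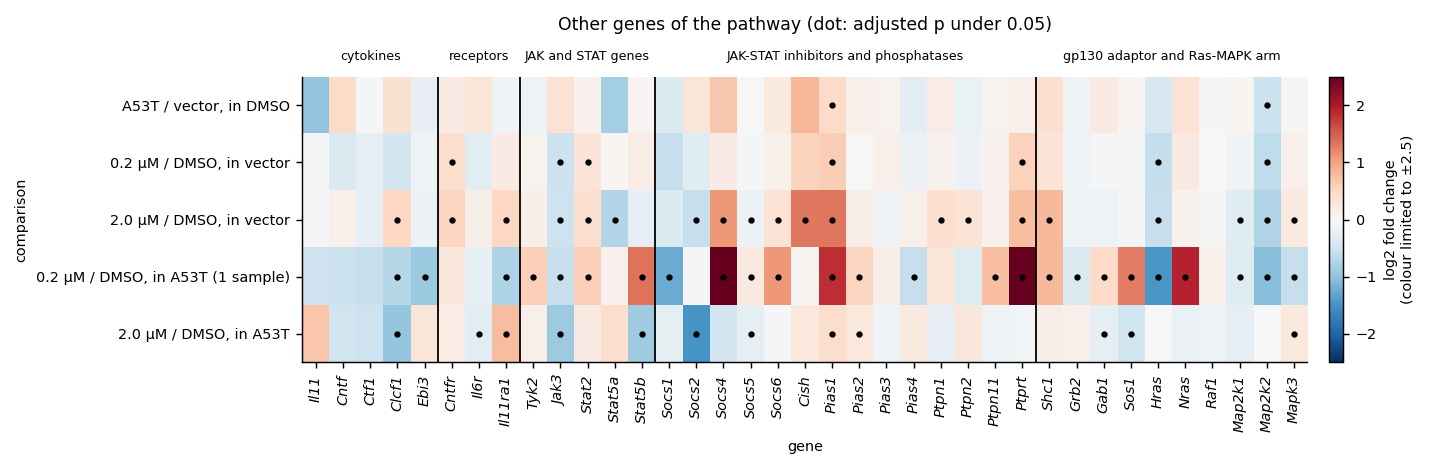
Log2 fold changes of 37 other pathway genes in the table (columns, by list) in 5 comparisons (rows), with colour limited to ±2.5 and a dot where the adjusted p was under 0.05. The strongest colours stand in the row for A53T at 0.2 µM, at Socs4 and Ptprt, and Pias1 is dotted in all 5 rows.

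Genes that Stat3 is known to activate were listed from general knowledge, many of them under the control of other factors too, and the table held 27 of 30. The astrocyte filament genes Gfap and Vim and the protease inhibitor gene Timp1 had the smallest p-values at both doses in both cultures. Gfap had 15438 to 15830 normalized counts in A53T at 0.2 µM and 6176 to 7320 in A53T at 2.0 µM, against 34947 and 36398 in A53T in DMSO. Its changes were -1.19 ± 0.12 in A53T at 0.2 µM (adjusted p = 1.53e-05) and -2.42 ± 0.09 in A53T at 2.0 µM (adjusted p = 1.91e-08). Vim had 4931 to 5132 in A53T at 0.2 µM and 3543 to 4153 in A53T at 2.0 µM, against 16972 and 18377 in A53T in DMSO. Vim fell by 2.21 ± 0.13 in A53T at 2.0 µM (adjusted p = 8.01e-07) and by 0.91 ± 0.12 in vector at 2.0 µM (adjusted p = 4.03e-05), and these changes differed (-1.30 ± 0.17, adjusted p = 0.000716). Timp1 fell by 2.24 ± 0.19 in A53T at 2.0 µM (adjusted p = 1.01e-05) and by 1.06 ± 0.17 in vector at 2.0 µM (adjusted p = 0.000225).

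The list moved in both directions elsewhere. In A53T against vector in DMSO 3 of 27 were higher and 2 lower (median 0.24), with the early gene Fos (0.89 ± 0.17, adjusted p = 0.00508) and the survival gene Mcl1 (0.54 ± 0.13, adjusted p = 0.0144) higher and the survival gene Bcl2l1 lower (-0.32 ± 0.07, adjusted p = 0.00756). Against DMSO, 6 rose and 12 fell in A53T at 0.2 µM (median -0.32), 4 rose and 11 fell in A53T at 2.0 µM (median -0.30), 1 rose and 10 fell in vector at 0.2 µM (median -0.20) and 7 rose and 6 fell in vector at 2.0 µM (median -0.06). Of all genes 14% passed for A53T against vector in DMSO, and 68%, 37.6%, 18.3% and 47.2% in the other 4 comparisons in that order. With only the groups compared the list counts were 9 higher and 3 lower for A53T against vector in DMSO. They were 1 higher and 8 lower for A53T at 2.0 µM. Under that setting 37.1% and 15.9% of all genes passed. With a correction for gene length 6 rose and 7 fell in A53T at 0.2 µM with a median of 0.19, where 61.5% of all genes passed. Phosphorylation of Stat3, through which it acts on these genes, was not measured. In the test of a difference between cultures at 2.0 µM, 2 of 27 were higher and 10 lower, where 8.14% of all genes were higher and 6.45% lower. The 3 with the smallest p-values were Vim, the adhesion molecule gene Icam1 (-1.27 ± 0.22, adjusted p = 0.00338) and the kinase gene Pim1 (-1.52 ± 0.28, adjusted p = 0.00423). Icam1 had 150 to 200 normalized counts in A53T at 2.0 µM, against 261 and 301 in A53T in DMSO, and 372 to 539 in vector at 2.0 µM, against 282 to 315 in vector in DMSO.

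**Figure D4:**
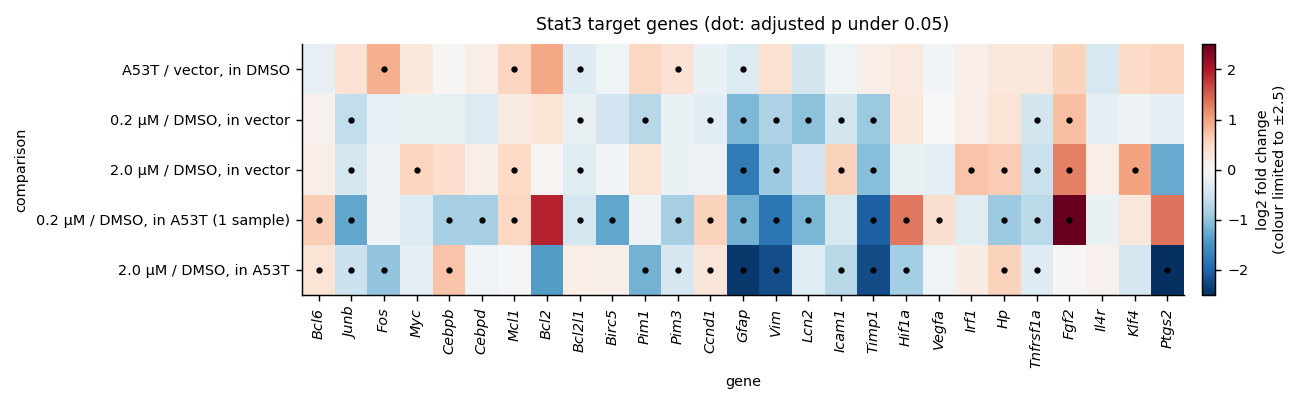
Log2 fold changes of the 27 measured Stat3 target genes (columns) in 5 comparisons (rows), with colour limited to ±2.5 and a dot where the adjusted p was under 0.05. Gfap, Vim and Timp1 are blue and dotted in all 4 FK506 rows, and the row for A53T at 2.0 µM has 11 dotted falls against 4 dotted rises.

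Cell type markers moved with these groups, and their part in the results was not tested. Astrocyte markers summed to 94351 and 98314 normalized counts in A53T in DMSO, 73521 to 74195 in A53T at 0.2 µM and 65799 to 67153 in A53T at 2.0 µM, and to 115729 to 117330, 78811 to 82843 and 53646 to 54353 in vector in DMSO, at 0.2 µM and at 2.0 µM. Of the 14 measured astrocyte markers, 0 rose and 4 fell in A53T against vector in DMSO, 3 rose and 5 fell in A53T at 0.2 µM, 4 rose and 5 fell in A53T at 2.0 µM, 0 rose and 5 fell in vector at 0.2 µM and 2 rose and 11 fell in vector at 2.0 µM. In that order 14%, 68%, 37.6%, 18.3% and 47.2% of all genes passed. Gfap belongs to the astrocyte and Stat3 target lists and made up most of the fall of the astrocyte sum in A53T. Neuronal markers summed to 75909 to 76958 in A53T at 0.2 µM and 57127 to 62869 in A53T at 2.0 µM, against 69228 and 70613 in A53T in DMSO, and to 64540 to 66779 in vector at 0.2 µM and 53510 to 54563 in vector at 2.0 µM, against 74077 to 78916 in vector in DMSO. Of these 13 markers, 5 rose and 4 fell in A53T at 0.2 µM and 1 rose and 6 fell in A53T at 2.0 µM. In vector 0 rose and 4 fell at 0.2 µM, and 0 rose and 8 fell at 2.0 µM. Fibroblast and meningeal markers, 8 of 12 measured, summed to 558 to 634 in A53T at 2.0 µM, against 1069 and 1231 in A53T in DMSO, and to 874 to 935 in vector at 2.0 µM, against 1480 to 1605 in vector in DMSO. Of these 8, 0 rose and 2 fell in A53T at 2.0 µM and 0 rose and 4 fell in vector at 2.0 µM. In A53T at 0.2 µM they summed to 1241 to 1317, with 2 higher and 2 lower and a median of 0.76. Of the 14 microglial markers, 12, among them Cx3cr1 and Aif1, were not among the labels. The remaining 2 rose in both cultures at 2.0 µM, with sums of 4376 to 4797 in A53T at 2.0 µM, against 2863 and 3009 in A53T in DMSO, and of 3403 to 3690 in vector at 2.0 µM, against 2387 to 2507 in vector in DMSO. The 7 measured oligodendrocyte lineage markers summed to 4992 to 5083 in A53T at 2.0 µM, against 3685 and 3709 in A53T in DMSO, with 4 higher and 2 lower. In vector cultures they summed to 2336 to 2437 at 2.0 µM, against 4161 to 4251 in DMSO, with 1 higher and 3 lower.

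Fold changes also varied with the length of the gene, which bears on the 6 long members. In A53T at 0.2 µM against DMSO the Spearman rho between annotated length and fold change was 0.541 over the 10458 genes with a length, 63.4% of the longest genes rose and 62.3% of the shortest fell, taking the longest and shortest 25% of genes. In A53T at 2.0 µM rho was -0.352, in vector at 0.2 µM 0.298, in vector at 2.0 µM -0.095 and in A53T against vector in DMSO 0.17. Genes share libraries, so these values are descriptions. Socs3 spans 3.4 kb, Lif 9.45 kb, Il6st 40.6 kb, Stat3 52 kb, Osmr 54.3 kb, Jak2 59.9 kb, Lifr 68.6 kb and Jak1 109 kb, and the median gene spans 25 kb. After a correction for length within each library, Jak1 no longer passed in A53T at 0.2 µM (0.19, adjusted p = 0.333), while Lifr (3.91, adjusted p = 0.000104), Il6st (0.50, adjusted p = 0.000103), Osmr (0.91, adjusted p = 0.0218) and Jak2 (0.44, adjusted p = 0.0094) did. In A53T at 2.0 µM the same 4 members passed with the correction: Osmr (-1.60, adjusted p = 0.000278), Socs3 (-1.40, adjusted p = 0.00303), Stat3 (-0.38, adjusted p = 0.000572) and Jak1 (-0.35, adjusted p = 0.039). Housekeeping genes, 11 of 12 measured, summed to 116187 to 116896 normalized counts in A53T at 0.2 µM and 191201 to 226605 in A53T at 2.0 µM, against 200009 and 203444 in A53T in DMSO. In vector cultures the sums were 165873 to 188777 at 0.2 µM and 174603 to 199516 at 2.0 µM, against 215334 to 225972 in DMSO. The part of length or RNA quality in the values of A53T at 0.2 µM was not tested further, and with 1 sample these cannot be told apart from the dose.

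**Figure D5:**
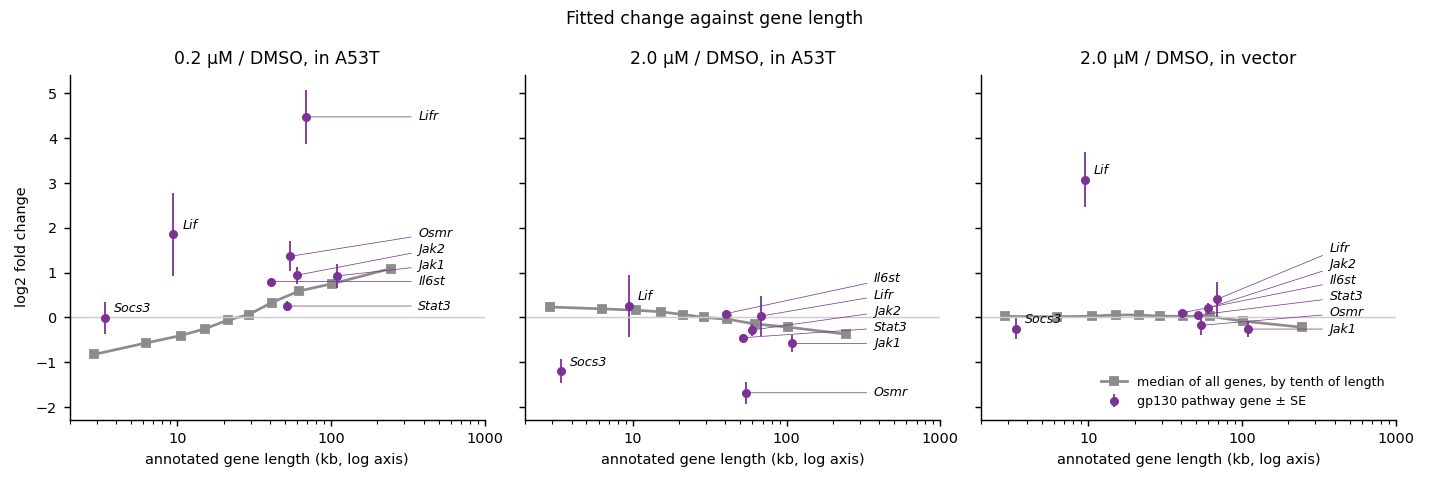
Log2 fold change against annotated gene length (log axis) in 3 comparisons: purple points are the 8 genes with standard errors, and grey squares are medians of all genes in 10 bins of length. In A53T at 0.2 µM the grey medians climb with length and Lifr stands far above them, while in A53T at 2.0 µM Osmr and Socs3 stand below the grey medians.

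The members resembled different genes over the samples. By Pearson r of log2(value + 1) over the 15 samples of the fit, given with no test and chosen as the highest of all genes, Lif was most like Sf1 (r = 0.914), Nup107 (r = 0.907) and Cwc25 (r = 0.903). Socs3 was most like Gpr3 (r = 0.949), Sbno2 (r = 0.9) and Slc1a5 (r = 0.86), and Osmr was most like the fibronectin gene Fn1 (r = 0.969), Srsf7 (r = 0.959) and Yeats2 (r = 0.928). Fn1 is among the listed fibroblast and meningeal markers, and the part of such cells in the values of Osmr was not tested. Stat3 was most like Usp53 (r = 0.929), Btaf1 (r = 0.92) and Nedd9 (r = 0.916). Lifr was most like Fbxl20, Rims3 and Arfgef2 (r = 0.961 to 0.969), Il6st like Xkr4, Epm2aip1 and Acsl4 (r = 0.974 to 0.983), Jak1 like Fnbp1l, Tspyl4 and Wac (r = 0.991 to 0.996) and Jak2 like Lrrtm2, Dcaf7 and Abcg1 (r = 0.979 to 0.982). All these r values include the A53T sample at 0.2 µM, which was among the 2 samples farthest from the median for Lifr, Il6st, Osmr, Stat3, Jak1 and Jak2. Without that sample, over 14 samples, the r values for Lifr were 0.763 to 0.84, those for Osmr 0.861 to 0.95, those for Stat3 0.859 to 0.908 and those for Jak1 0.982 to 0.993. Between members, the highest r over 15 samples was that of Il6st and Jak2 (0.852), which was 0.441 over 14. Osmr and Socs3 had r = 0.648 over 15 samples and 0.733 over 14, the highest over 14. Lif had r of 0.161 with Osmr and 0.176 with Socs3 over 15, and of -0.066 and 0.127 over 14.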

How the data were processed

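Poly(A) RNA was sequenced from stranded libraries, per the labels' protocols. The deposited signal per gene is HTSeq counts that the authors normalized. The method of normalization and the tool versions are not given in the sources used here, and the submitters' processing notes name FastQC, TopHat, HTSeq and the rat build rn6. Reads behind a value are therefore unknown, and counting error could not be given.

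Groups came from the labels. Whether each library was a culture of its own is not stated there, and the p-values reflect library-to-library spread that may be technical. The 3 libraries of A53T at 0.2 µM FK506 were averaged to 1 sample, assumed to vary like the others. log2(value + 1) was fitted with limma 3.58.1 (trend, R 4.3.3) over 11247 genes and 15 samples in 6 groups, with 9 residual degrees of freedom, without a filter on low values, and p-values were adjusted by Benjamini-Hochberg with a threshold of 0.05. All 8 members entered the fit. The fit was also run on simulated data with independent normal noise. These held no libraries that stood apart and no trend with gene length, so that run does not check the fit for such features. Members, lists and tests were chosen with earlier results of these data known. Genes of the lists were named where they were among the 3 with the smallest p among those that passed in a comparison, and others were named after their values were seen. Promoters and gene lengths came from RefSeq (GRCr8), matched by symbol, and no coordinates were taken across builds. Alternatives were the pseudocount, filters, scaling, the set of samples, replicate blocks and each library left out. Figures were drawn with matplotlib 3.10.9. Some listed genes are counted with their list and are not reported by name here.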

Additional observations from a re-analysis of the deposited data

Results flagged for a closer look

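Of the 8 genes, 6 changed differently in A53T and vector cultures between DMSO and 0.2 µM FK506, by the test of the difference of the changes in limma, where 47.3% of all genes passed that test. The difference was 4.10 ± 0.72 on the log2 scale for Lifr (adjusted p = 0.00163), 0.76 ± 0.09 for Il6st (adjusted p = 0.000181), 1.68 ± 0.40 for Osmr (adjusted p = 0.00734), 0.48 ± 0.14 for Stat3 (adjusted p = 0.0138), 0.83 ± 0.31 for Jak1 (adjusted p = 0.0458) and 0.60 ± 0.22 for Jak2 (adjusted p = 0.0422). All 6 rest on the 3 A53T libraries at 0.2 µM, which count as 1 sample. With the correction for gene length the values for Stat3 (0.15, adjusted p = 0.225), Jak1 (0.21, adjusted p = 0.401) and Jak2 (0.21, adjusted p = 0.291) no longer passed. The Jak1 call was also lost without any 1 of 10 libraries (highest adjusted p = 0.104) and the Jak2 call without any 1 of 9 (highest adjusted p = 0.0902).

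Between DMSO and 2.0 µM FK506, 2 of the 8 changed differently in A53T and vector cultures, where 14.6% of all genes passed. The difference was -1.51 ± 0.33 for Osmr (adjusted p = 0.0116) and -0.51 ± 0.11 for Stat3 (adjusted p = 0.0119), and both genes fell in A53T cultures without passing in vector cultures. Both calls depended on the A53T libraries in DMSO, of which there were 2: the Osmr call was lost without either (adjusted p = 0.0501 and 0.056) and the Stat3 call without library 3 (adjusted p = 0.0613).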

How the results depend on the processing

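No result of the 8 genes that passed the test changed sign under any alternative run. Leaving out 1 library at a time, the number of the 8 genes past the threshold ranged over 1 to 3 for A53T against vector in DMSO, 5 to 6 and 3 to 4 for 0.2 and 2.0 µM against DMSO in A53T, 0 to 3 and 1 to 2 for the same steps in vector, 7 to 7 for 2.0 against 0.2 µM in A53T, 2 to 4 for that step in vector, 6 to 8 and 2 to 5 for A53T against vector at 0.2 and 2.0 µM, and 4 to 7 and 0 to 5 for the difference of changes at 0.2 and 2.0 µM. The share of all genes that passed with each library left out is not given here, so these ranges have no background beside them. With only the groups compared, the count was 2 for vector at 0.2 µM and 2 for A53T at 2.0 µM, where 18.9% and 15.9% of all genes passed. It was 0 for A53T against vector at 2.0 µM, where 6.12% of all genes passed. Genes with a mean of at least 50, which leaves out Lif, gave 2 for vector at 0.2 µM and 0 for vector at 2.0 µM. They gave 1 for vector at 2.0 against 0.2 µM. Of all genes kept by that filter, 20.6%, 49.6% and 36.6% passed in these 3 comparisons. Without the 3 libraries that stood apart the count was 4 for vector at 0.2 µM and 2 for vector at 2.0 µM. It was 4 for vector at 2.0 against 0.2 µM and 4 for the difference of changes at 2.0 µM. In that order 52.4%, 61.2%, 48% and 37.8% of all genes passed under that setting. With all 17 libraries as samples the count was 3 for vector at 0.2 µM, where 24.4% of all genes passed. Deviations from the group means had r of -0.51 to 0.669 over 18 pairs of libraries with the same number. Over 36 pairs of other numbers r was -0.64 to 0.642. A53T in DMSO and A53T at 0.2 µM were not in this check. The 3 libraries that stood apart had r of 0.623 to 0.669 with each other. The check therefore cannot decide whether the numbers pair the samples. A replicate block by title number left out library 3 of A53T in DMSO, whose column matches no title number. That group then held 1 library, so counts for comparisons with it are not given. The counts with this block were 0 for vector at 0.2 µM and 2 for A53T against vector at 2.0 µM. There 11.6% and 13.2% of all genes passed. With a replicate block by column number the count was 2 for vector at 0.2 µM, where 15.4% of all genes passed. The correction for gene length was chosen after seeing the data, and 7 of the 88 values of the 8 genes no longer passed under it while 5 newly passed. The cause of these changes was not tested. The depth in reads is unknown, and Lif, with 0.132 to 31.3 normalized counts, is the member for which low values limit precision most.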
